A study of Mus musculus with 12 samples.

Results

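Genes that report on and restrain ERK signalling, 10 in all, were followed through the mammary epithelial cycle: the dual-specificity phosphatase genes Dusp4, Dusp5 and Dusp6, the Sprouty genes Spry1, Spry2 and Spry4, the Spred genes Spred1 and Spred2, and the ETS factor genes Etv4 and Etv5. They were taken by symbol, and the 10 symbols each matched 1 Entrez identifier among the 27179 genes of the count table. All 10 had enough counts to be tested. RNA sequencing had counted reads per gene in luminal and in basal cells sorted by flow cytometry from mammary glands of untreated wild type FVB/N females, which were virgin, at day 18.5 of pregnancy or at day 2 of lactation. Per the series' design text there were 2 mice at each stage, with 2 libraries in each of the 6 groups, and neither the animals' age nor the surface markers of the sort are given in the sources used here. The run names place the luminal libraries in sequencing lane 1 and the basal libraries in lane 2, so cell type and lane cannot be told apart. The p-values measure the spread between these libraries.

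Growth factor receptors of the FGF, EGF and other tyrosine kinase families switch on RAS, which passes the signal through RAF and MEK to the kinase ERK. Active ERK raises the transcription of its own brakes: DUSP phosphatases remove the activating phosphates from ERK and related kinases, while Sprouty and SPRED proteins act upstream, between the receptor and RAF. ETV4 and ETV5, ETS factors of the PEA3 group, are transcription factors whose genes are often induced by FGF signalling, and in the mammary gland receptor tyrosine kinase signalling takes part in duct branching and alveolar growth. These genes are used as transcript readouts of the pathway, but none of the values below measures the phosphorylation of ERK itself.

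The libraries held 20.02 M to 24.72 M counts, and levels are given as counts scaled to a common library total (CPM) and by TMM factors, which equalise the bulk of genes between libraries. Every change is a log2 change from an edgeR quasi-likelihood fit of all 12 libraries, and a gene was called where its p, adjusted over the 15969 genes tested, lay below 0.05. The sorted populations carried the markers of their labels. The summed level of 7 luminal markers lay between 4187 and 10421 CPM in luminal libraries and between 1096 and 1702 CPM in basal ones, and that of 7 basal markers between 13926 and 46942 CPM in basal libraries and between 55.3 and 391 CPM in luminal ones. Scaling by library size alone, in which milk protein reads count in full, shifted the change of the median gene. The shift was -0.50 for the luminal step from virgin to pregnant, -0.85 for that from pregnant to lactating and -1.36 for lactating against virgin luminal cells, and -0.16, -0.04 and -0.20 for the same basal comparisons. It was -0.16, 0.19 and 0.99 for basal against luminal cells at the 3 stages, and -0.34 and -0.79 for the luminal minus basal difference of the pregnancy and of the lactation change. All changes below are set against the bulk of genes after TMM scaling.

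Upstream sequences are shown for 3 members that fell together from pregnancy to lactation in both cell types (Dusp5, Dusp6 and Spry2) and for Etv5, which moved the opposite way in luminal cells. RefSeq windows of assembly GRCm38.p6 covered 7 of the 10 members, not Dusp4, Spry4 or Etv4. Each line reads 5′ to 3′ on the gene's own strand and ends at the base before the RefSeq start, except that 36 bases of the Dusp5 window lying in an annotated Dusp5 exon were left out. Capitals mark the ETS core GGAA, the longer ETS match GGAAGTG and serum response elements. All were searched on both strands, and a match on the other strand is in capitals as its reverse complement. The windows were Dusp5 at chr19:53528895-53529108 on the plus strand, Dusp6 at chr10:99262981-99263230 on the plus strand, Spry2 at chr14:105896820-105897069 on the minus strand, and Etv5, at the inner of its RefSeq starts, at chr16:22438369-22438618 on the minus strand. The window at the outer Etv5 start, not shown, held 0 matches of any motif searched.
Dusp5: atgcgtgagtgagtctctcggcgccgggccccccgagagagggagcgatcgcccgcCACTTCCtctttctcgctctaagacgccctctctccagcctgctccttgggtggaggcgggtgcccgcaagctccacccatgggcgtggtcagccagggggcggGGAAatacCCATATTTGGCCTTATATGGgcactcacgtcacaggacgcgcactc
Dusp6: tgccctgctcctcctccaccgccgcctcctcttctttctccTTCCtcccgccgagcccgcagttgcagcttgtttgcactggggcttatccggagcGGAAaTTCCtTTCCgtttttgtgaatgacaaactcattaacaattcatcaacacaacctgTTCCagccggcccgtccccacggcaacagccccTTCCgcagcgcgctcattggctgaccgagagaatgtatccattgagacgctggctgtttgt
Spry2: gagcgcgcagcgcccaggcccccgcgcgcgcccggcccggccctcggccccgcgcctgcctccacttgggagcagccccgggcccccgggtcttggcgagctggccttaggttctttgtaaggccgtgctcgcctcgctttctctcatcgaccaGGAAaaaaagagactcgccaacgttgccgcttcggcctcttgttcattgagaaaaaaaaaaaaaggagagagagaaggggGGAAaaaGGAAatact
Etv5: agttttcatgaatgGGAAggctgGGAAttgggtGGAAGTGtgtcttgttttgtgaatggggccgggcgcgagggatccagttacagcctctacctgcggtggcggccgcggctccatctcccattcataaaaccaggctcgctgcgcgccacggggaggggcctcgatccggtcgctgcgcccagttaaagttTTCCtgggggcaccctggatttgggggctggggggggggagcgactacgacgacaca
The Dusp5 window held 2 adjoining serum response elements, 82 to 73 and 72 to 63 bases before the start, a motif found in 1.47% of 32851 promoter windows. It also held GGAAGTG on the other strand 194 to 188 bases before the start, a match present in 8.55% of windows, and the Etv5 window held it 217 to 211 bases before its start. The Dusp6 window held 6 GGAA cores and the Spry2 window 3, beside a median of 3 over all windows, of which 93.4% held at least 1. Neither TGANTCA (AP-1, 6.75% of windows), TGACGTCA (CRE, 1.55%) nor CCGGAAGT (a longer ETS match, 2.88%) occurred in these 4 windows. GGAAGTG and CCGGAAGT both hold the core GGAA, whose search was added after the others, and a match describes the letters only.

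The phosphatase genes Dusp4 and Dusp5 had their highest mean in luminal cells of pregnant mice and were low in lactation in both cell types. Dusp4 (Entrez 319520; chromosome 8, 34807610 to 34819894, GRCm38.p6), a nuclear phosphatase of ERK, JNK and p38, stood in luminal cells at 82.8 and 125 CPM in virgin, 151 and 149 CPM in pregnant and 40.3 and 36.1 CPM in lactating mice. Its basal levels were 22.4 and 28.0, then 44.3 and 29.9, then 14.4 and 18.9 CPM at these stages. The luminal libraries of each stage lay above the basal ones of the same stage, and the lactating libraries of each cell type lay below all others of that cell type. From pregnancy to lactation Dusp4 fell by 1.97 (SE 0.22, adjusted p = 1.36e-05) in luminal cells and fell by 1.15 (SE 0.22, adjusted p = 0.00208) in basal cells, and its basal against luminal change was -2.04, -2.01 and -1.19 at the 3 stages. The last of these was -0.19 and lost its call with library size only. In bulk RNA of sorted cells, fewer cells that express a gene and less RNA of it per cell cannot be told apart.

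Dusp5 (Entrez 240672; chromosome 19, 53529145 to 53541809), an ERK phosphatase of the nucleus, followed a similar course at higher levels. In luminal cells it had 166 and 273 CPM in virgin, 251 and 299 CPM in pregnant and 127 and 106 CPM in lactating mice, and in basal cells 101 and 167, then 196 and 197, then 99.9 and 84.4 CPM. Virgin replicates differed most, and luminal virgin and pregnant libraries overlapped. The change from pregnancy to lactation was -1.24 (SE 0.24, adjusted p = 0.00106) in luminal cells and -1.09 (SE 0.24, adjusted p = 0.0046) in basal cells, the latter not called without basal lactating replicate 2 (adjusted p = 0.0563). Basal against luminal, the change of -0.71 in virgin mice was -0.31 without luminal virgin replicate 2 and -0.39 without basal virgin replicate 1, neither called, and -1.11 without basal virgin replicate 2. In pregnant (-0.48) and lactating mice (-0.34) it was not called in the main fit. It was called with a block for the mouse (adjusted p = 0.000677 and 0.00813). The unpaired fit of only the groups compared called it as well (-0.47 and -0.37, adjusted p = 0.0109 and 0.0154). With no filter beyond 1 count the pregnant value was also called (adjusted p = 0.0294), and with library size only the lactating value turned to 0.65 and was called. An antisense-strand gene model, AC137853.2, overlaps 22.1% of Dusp5 exon bases, and without a known strand setting its reads cannot be told apart from those of Dusp5.

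Dusp6 parted the cell types. Dusp6 (Entrez 67603; chromosome 10, 99263231 to 99267489), the cytoplasmic phosphatase specific for ERK, fell in luminal cells from 306 and 384 CPM in virgin to 192 and 175 CPM in pregnant and 33.9 and 42.9 CPM in lactating mice. In basal cells it stood at 443 and 519, then 602 and 529, then 415 and 414 CPM. Luminal libraries of the 3 stages did not overlap, and the lowest basal library lay above the highest luminal one. The luminal change was -0.91 (SE 0.15, adjusted p = 0.000274) in pregnancy and -2.26 (SE 0.16, adjusted p = 3.29e-07) from pregnancy to lactation. Basal cells changed by 0.23 (SE 0.15, adjusted p = 0.246) and -0.45 (SE 0.15, adjusted p = 0.0321), the latter not called without basal pregnant replicate 1 or either basal lactating replicate. The gap between the cell types went from 0.48 in virgin mice, not called without luminal virgin replicate 1, without basal virgin replicate 2 or with library size only, to 1.62 in pregnant and 3.43 in lactating mice.

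**Figure D1:**
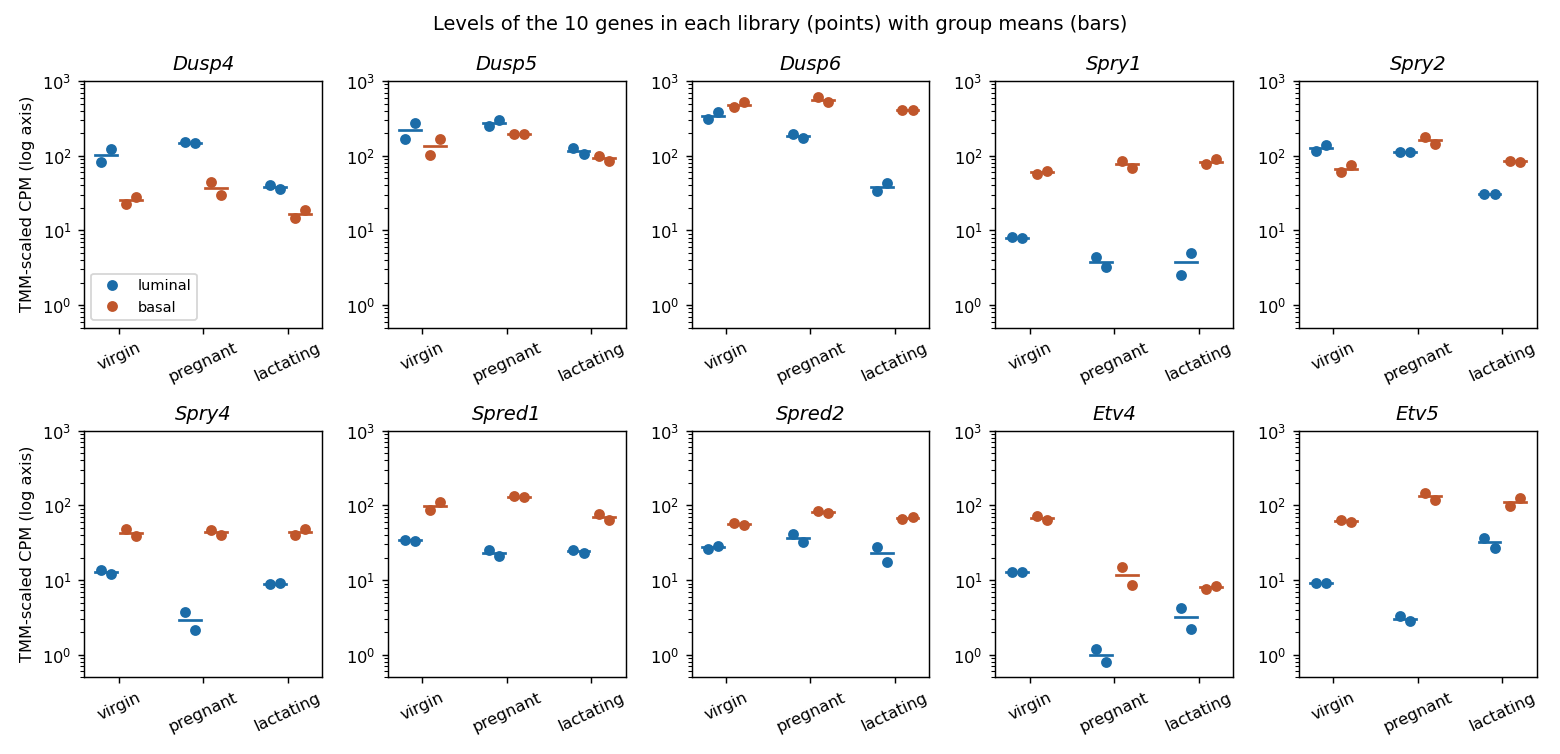
TMM-scaled CPM (log axis) of the 10 genes by stage, with luminal libraries in blue and basal libraries in orange; each point is 1 library and each bar the mean of 2. Dusp6 falls from 306 and 384 to 33.9 and 42.9 CPM in luminal cells, whereas its basal points stay between 414 and 602 CPM, and Etv5 dips to 3.27 and 2.81 CPM in luminal cells of pregnant mice.

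The Sprouty genes, which encode membrane-associated brakes acting between receptor and RAF, split into a shared and a mainly basal pattern. Spry2 (Entrez 24064; chromosome 14, 105891947 to 105896819) had 117 and 138 CPM in luminal cells of virgin, 114 and 112 CPM in pregnant and 30.3 and 30.7 CPM in lactating mice. In basal cells it had 59.7 and 74.4 CPM, then 178 and 145 CPM, then 83.9 and 83.5 CPM. Basal libraries of virgin mice lay below the luminal ones, and in pregnant and lactating mice they lay above. In basal cells Spry2 rose by 1.27 (SE 0.13, adjusted p = 2.90e-05) in pregnancy and fell by 0.95 (SE 0.13, adjusted p = 0.000279) in lactation. In luminal cells the pregnancy change was -0.18 (SE 0.13, adjusted p = 0.29), which was -0.68 and called with library size only, and the lactation change -1.89 (SE 0.14, adjusted p = 5.04e-07).

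Spry1 (Entrez 24063; chromosome 3, 37639947 to 37644599) was a low transcript of luminal cells, at 8.21 and 7.80 CPM in virgin, 4.34 and 3.205 CPM in pregnant and 2.52 and 5.0 CPM in lactating mice. Basal cells held 57.7 and 63.0, then 86.1 and 67.9, then 77.2 and 89.9 CPM. All 6 basal libraries lay above all 6 luminal ones, by log2 changes of 2.91 (SE 0.20), 4.34 (SE 0.22) and 4.47 (SE 0.23) at the 3 stages. In luminal cells of pregnant against virgin mice it fell by 1.08 (SE 0.23, adjusted p = 0.0021). Its luminal change from virgin to lactation, -1.09, was -0.65 without luminal lactating replicate 1 and -1.64 without replicate 2. The opposite-strand model Gm42922 overlaps 24.4% of Spry1 exon bases, so its counts share the uncertainty described for Dusp5.

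Spry4 (Entrez 24066; chromosome 18, 38586247 to 38601347) stayed level in basal cells and dipped in luminal cells in pregnancy. Luminal libraries held 13.7 and 11.99 CPM in virgin, 3.76 and 2.12 CPM in pregnant and 8.79 and 9.17 CPM in lactating mice. Basal libraries held 47.6 and 38.8, then 46.8 and 40.0, then 40.8 and 47.6 CPM, ranges that overlap between all 3 stages. The luminal change was -2.11 (SE 0.22, adjusted p = 6.86e-06) in pregnancy and 1.60 (SE 0.24, adjusted p = 0.000127) in lactation, the latter 0.73 with library size only. In basal cells the changes were 0.00 (SE 0.17, adjusted p = 0.99) and 0.03 (SE 0.17, adjusted p = 0.926). The luminal level of lactating against virgin mice, a change of -0.52, was not called without luminal virgin replicate 1, without either luminal lactating replicate, with limma-voom or with DESeq2.

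The Spred genes, whose products bring the RAS inhibitor neurofibromin to the membrane, were higher in basal than in luminal cells at each stage. Spred1 (Entrez 114715; chromosome 2, 117121071 to 117182279) had 34.7 and 33.3, then 25.3 and 20.7, then 25.1 and 23.4 CPM in luminal cells of virgin, pregnant and lactating mice. Its basal levels were 87.4 and 111, then 132 and 129, then 76.3 and 63.4 CPM. Luminal pregnant and lactating libraries overlapped, while the basal libraries of the 3 stages did not. In basal cells Spred1 fell by 0.90 (SE 0.13, adjusted p = 0.000445) from pregnancy to lactation. Its basal rise in pregnancy, 0.40 (SE 0.13, adjusted p = 0.0384), was 0.24 and not called without basal virgin replicate 1, and was also lost without either basal pregnant or either luminal lactating replicate, with only the groups compared and with library size only. The luminal fall in pregnancy, -0.56 (SE 0.14, adjusted p = 0.00556), was lost without luminal pregnant replicate 2 (adjusted p = 0.0555), and the luminal lactation change of 0.08 turned to -0.78, called, with library size only.

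Spred2 (Entrez 114716; chromosome 11, 19924442 to 20024026) had 26.4 and 28.4, then 41.4 and 32.4, then 27.7 and 17.7 CPM in luminal cells at the 3 stages. In basal cells it had 57.3 and 54.99, then 85.3 and 79.3, then 66.6 and 70.5 CPM. Every basal library lay above every luminal one, by log2 changes of 1.04 to 1.59, and the basal stages did not overlap. The basal rise in pregnancy was 0.55 (SE 0.16, adjusted p = 0.0213), a call lost without any 1 of the 4 basal virgin and pregnant libraries and with library size only. The luminal change in pregnancy, 0.43 (SE 0.17, adjusted p = 0.05003), lay just above the threshold and was called with the replicate number as a block (adjusted p = 0.0416). The luminal change in lactation, -0.70 (SE 0.17), was -0.38 and not called without luminal lactating replicate 2, and not called without luminal pregnant replicate 1.

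The ETS factor genes showed the largest changes of the 10 between consecutive stages. Etv4 (Entrez 18612; chromosome 11, 101769747 to 101785310) had 12.8 and 12.7 CPM in luminal cells of virgin mice, 1.21 and 0.789 CPM in pregnant and 4.20 and 2.20 CPM in lactating mice, the pregnant libraries resting on 27 and 16 counts. In basal cells it had 71.5 and 63.4, then 14.8 and 8.69, then 7.53 and 8.41 CPM. Virgin libraries were the highest of each cell type, with no overlap with the later stages. In pregnancy its luminal change was -3.66 (SE 0.32, adjusted p = 1.86e-06) and its basal change -2.52 (SE 0.23, adjusted p = 1.27e-05). The luminal rise in lactation, 1.66 (SE 0.40, adjusted p = 0.00417), was 1.16 and not called without luminal lactating replicate 1, and 0.80 and not called with library size only. In basal cells the lactation change was -0.56 (SE 0.24, adjusted p = 0.0965), and lactating against virgin cells it was -3.08 (SE 0.24).

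Etv5 (Entrez 104156; chromosome 16, 22381313 to 22439570), the close relative of Etv4, followed it only in part. It shared the direction of the luminal changes in pregnancy and in lactation, but not that of the basal change in pregnancy. Luminal libraries held 9.21 and 9.08 CPM in virgin, 3.27 and 2.81 CPM in pregnant and 37.1 and 26.8 CPM in lactating mice. Basal libraries held 64.0 and 59.4, then 148 and 117, then 99.1 and 125 CPM. Lactating luminal libraries were the highest of that cell type, whereas virgin basal libraries were the lowest of theirs, and the basal pregnant and lactating libraries overlapped. In pregnancy Etv5 fell by 1.58 (SE 0.21, adjusted p = 6.58e-05) in luminal cells and rose by 1.10 (SE 0.16, adjusted p = 0.000297) in basal cells. From pregnancy to lactation it rose by 3.39 (SE 0.21, adjusted p = 1.37e-07) in luminal cells, or 2.53 with library size only, while the basal change was -0.24 (SE 0.16, adjusted p = 0.25).

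In luminal cells of pregnant mice, Etv5 and Spry1 stood at 2.29% and 4.90% of their basal levels, where the 7 basal markers together stood at 0.993%. In lactating mice the shares were 28.6% for Etv5, 4.5% for Spry1 and 0.220% for the basal markers. Single basal markers differed widely from their sum. In pregnant mice Krt14 stood at 216 and 271 CPM in luminal against 4202 and 5449 CPM in basal libraries. Oxtr stood there at 38.6 and 44.5 against 340 and 523 CPM, and Myh11 at 21.2 and 23.8 against 8243 and 10509 CPM. In the other direction, the 7 luminal markers in basal cells together stood at 11.2%, 13.4% and 34.97% of their luminal level in virgin, pregnant and lactating mice. The lactating share followed Krt8, at 921 and 720 CPM in basal against 1026 and 702 CPM in luminal libraries, and Krt19, at 449 and 449 against 574 and 556 CPM. Elf5 stood at 9.73 and 9.98 against 1079 and 1255 CPM, and Cldn7 at 1.08 and 1.24 against 252 and 216 CPM. Of the 7, 5 were called lower in basal cells in lactation and 0 higher (all genes 35.4% and 39.2%). The part of RNA from the other cell type in any member's change was not tested.

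Counted over the members, pregnancy lowered 6 of 10 in luminal cells (Dusp6, Spry1, Spry4, Spred1, Etv4 and Etv5) and raised 0, where 45.9% of all genes tested were called, 21.8% higher and 24.1% lower. With library size only the members were 0 higher and 7 lower, and all genes 7.59% higher and 52.8% lower. With DESeq2 size factors Dusp4 (0.53) and Spred2 (0.44) were called higher as well. The same held with the DESeq2 test (0.53 and 0.44), limma-voom (0.56 and 0.42) and no filter beyond 1 count (0.52 and 0.42). Spred2 was also called with only the groups compared (0.43) and with the replicate number as a block (0.42). In the main fit Dusp4 changed by 0.53 (SE 0.21, adjusted p = 0.0527). The median change of the members was -0.74, beside -0.04 over all genes. In basal cells pregnancy raised 4 (Spry2, Spred1, Spred2 and Etv5) and lowered 1 (Etv4), where 30.0% of all genes were called, 15.6% higher and 14.4% lower, and the median was 0.47 beside 0.00. The basal count of 5 was 3 with library size only (2 higher and 1 lower, and all genes 10.3% higher and 21.8% lower), without basal virgin replicate 1 and without basal pregnant replicate 1.

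From pregnancy to lactation, luminal cells lowered 5 members (Dusp4, Dusp5, Dusp6, Spry2 and Spred2) and raised 3 (Spry4, Etv4 and Etv5), where 48.3% of genes were called, 23.7% higher and 24.6% lower. With library size only 7 members were lower and 2 higher, and all genes 60.0% lower and 6.34% higher. Basal cells lowered 5 (the 3 Dusp genes, Spry2 and Spred1) and raised 0, where 33.1% were called, 15.7% higher and 17.4% lower. The basal count was 3 without basal lactating replicate 2. The median change was -0.36 in luminal and -0.51 in basal cells, beside 0.00 and 0.01 over all genes. Dusp4, Dusp5, Dusp6 and Spry2 were thus lower in lactation in both cell types. These comparisons share the pregnant libraries with the pregnancy comparisons, so a level that happened to be high in them would raise the first change and lower the second.

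Against the virgin state, lactating luminal cells had 8 members lower and 1 higher, Etv5 (1.8, SE 0.18, adjusted p = 2.22e-06), where 60.2% of genes were called, 26.7% higher and 33.5% lower. With library size only 9 members were lower and 1 higher, Etv5 at 0.44, and all genes 78.3% lower and 5.83% higher. Dusp6 changed most of the 10, by -3.17 (SE 0.16, adjusted p = 7.14e-09), followed by Spry2 with -2.06 (SE 0.14) and Etv4 with -1.995 (SE 0.29). The calls of Dusp5 (-0.91, or -0.51 without luminal virgin replicate 2 and also lost without luminal lactating replicate 2) and Spred1 (-0.49, lost without luminal lactating replicate 2) rested on single libraries. Lactating basal cells had 2 members higher (Spry1 and Etv5) and 3 lower (Dusp4, Spred1 and Etv4), where 47.5% were called, 23.7% in each direction. The basal count of 5 was 3 without basal virgin replicate 2, basal lactating replicate 1 or basal lactating replicate 2, and with library size only 1 member was higher and 5 lower (all genes 15.3% higher and 32.6% lower). Spred1 in basal cells (-0.50) was -0.33 without basal virgin replicate 2 and -0.38 without basal lactating replicate 2, neither called. Etv4 and Etv5 kept their calls whichever library was left out. The call of Spry1 (0.47) was lost without either basal virgin, either basal lactating or either luminal virgin replicate, and with library size only (0.27). That of Dusp4 (-0.60) was lost without basal virgin replicate 2 (-0.43), without basal lactating replicate 1 (-0.42), without any 1 of the luminal pregnant and lactating libraries and with limma-voom.

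**Figure D2:**
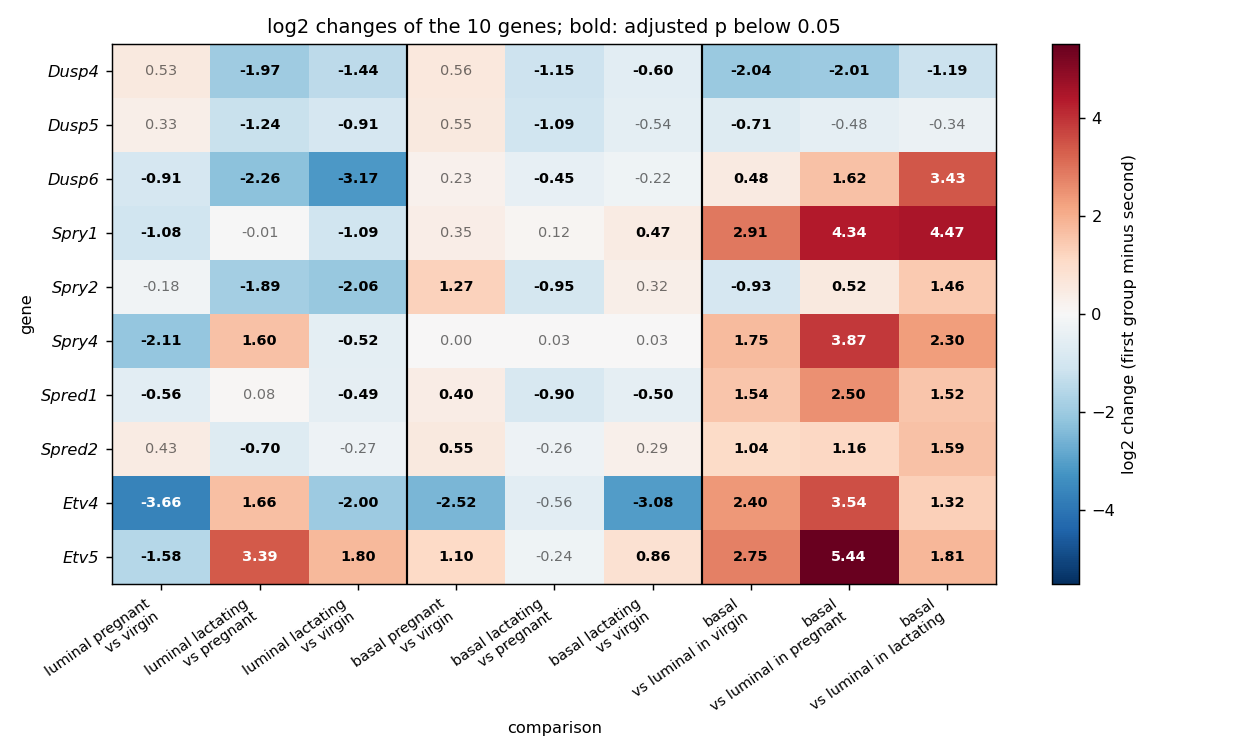
Heat map of log2 changes (colour scale, first group minus second) of the 10 genes (rows) in 9 comparisons (columns), with the value printed in each cell and bold type where the adjusted p was below 0.05. The luminal columns mix falls as wide as -3.66 for Etv4 with a rise of 3.39 for Etv5, and the right-hand columns show 7 genes higher in basal cells at every stage. Of all genes tested, 31.5%, 35.9% and 39.2% were called higher in basal cells in virgin, pregnant and lactating mice.

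Between the cell types, basal cells held more of 7 members and less of 3 in virgin mice, beside 62.8% of all genes called (31.5% higher, 31.2% lower). In pregnant mice 8 were higher and 1 lower (69.9% called, 35.9% higher and 33.9% lower), and in lactating mice again 8 and 1 (74.6% called, 39.2% higher and 35.4% lower). With library size only the lactating count was 9 higher and 0 lower, and all genes 63.9% higher and 15.8% lower. Dusp6, Spry1, Spry4, Spred1, Spred2, Etv4 and Etv5 were higher in basal cells at all 3 stages, and Dusp4 was lower at all 3. The share of all genes called the same way at all 3 stages was not counted. Spry2 crossed over, from a basal minus luminal change of -0.93 (SE 0.13, adjusted p = 4.77e-05) in virgin mice to 0.52 (SE 0.13, adjusted p = 0.00313) in pregnant and 1.46 (SE 0.14, adjusted p = 6.47e-07) in lactating mice. Etv5 in pregnant mice showed the widest gap, 5.44 (SE 0.21, adjusted p = 2.28e-10).

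The difference between the luminal and the basal change was tested directly. For pregnancy it was called for 6 members, with luminal minus basal values that were all negative, where 30.7% of genes were called, 14.0% higher and 16.7% lower; with library size only the members were 0 and 7, and all genes 6.31% higher and 28.9% lower. Etv5 differed by -2.69 (SE 0.27, adjusted p = 1.34e-05), Spry4 by -2.12 (SE 0.28, adjusted p = 0.000116) and Spry2 by -1.44 (SE 0.18, adjusted p = 9.60e-05). Spry1, Dusp6 and Spred1 followed with -1.43, -1.14 and -0.96. Dusp4, Dusp5 and Spred2 gave -0.03 (SE 0.30), -0.23 (SE 0.34) and -0.12 (SE 0.23). Etv4 gave -1.14 (SE 0.41, adjusted p = 0.0541), which was called with the mouse as a block (adjusted p = 0.00986).

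For the step into lactation 6 members differed, where 36.2% of genes were called, 18.3% higher and 18.0% lower. The luminal minus basal difference was positive for Etv5 (3.63, SE 0.26, adjusted p = 1.85e-06), Etv4 (2.22, SE 0.47, adjusted p = 0.00266), Spry4 (1.57, SE 0.29, adjusted p = 0.00115) and Spred1 (0.98, SE 0.20, adjusted p = 0.00207). For Spred1 the luminal change was 0.08, not called, and the basal one -0.90. The difference was negative for Dusp6 (-1.81, SE 0.21, adjusted p = 4.41e-05) and Spry2 (-0.94, SE 0.19, adjusted p = 0.00187). With library size only the calls of Spry4 (0.76) and Spred1 (0.17) were lost, the members were 2 higher and 6 lower and all genes 6.34% higher and 49.6% lower. Dusp4 gave -0.82 (adjusted p = 0.0555), called with the mouse as a block (adjusted p = 0.00699). The pregnancy and lactation differences share the pregnant libraries, so their opposite signs for Spry4, Spred1 and Etv5 are not independent of each other.

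**Figure D3:**
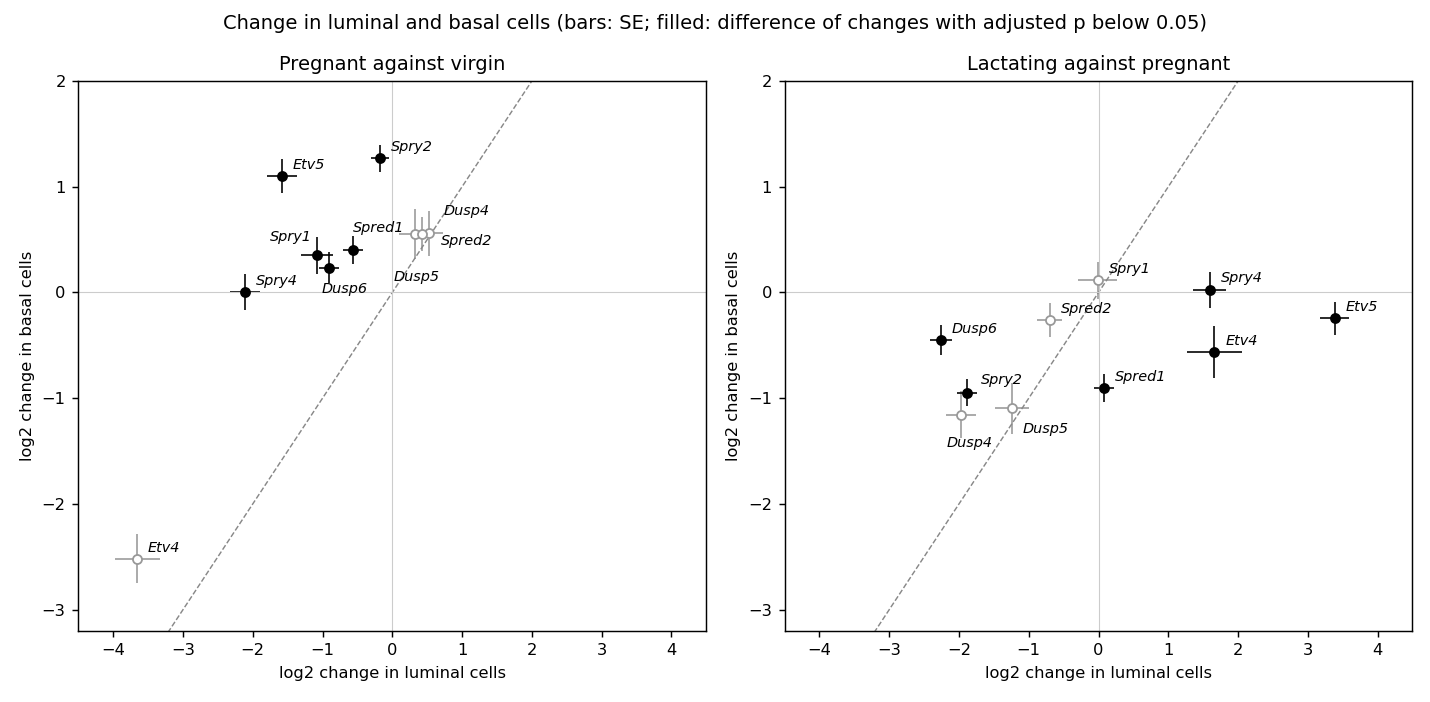
log2 change in luminal cells (x axis) against that in basal cells (y axis) for pregnant against virgin (left) and lactating against pregnant mice (right); bars are SEs, the dashed line marks equal change and filled points had a called difference. Etv5 lies far from the line in both panels, at a luminal change of -1.58 on the left and 3.39 on the right.

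Levels can be compared between genes only per length, here as CPM per kilobase of the deposited gene length. In luminal cells Dusp5 ranked first at every stage, with means of 190 ± 66, 238 ± 29 and 101 ± 12 CPM per kilobase (SD, n = 2) in virgin, pregnant and lactating mice. In basal cells Dusp6 ranked first, with 172 ± 19, 202 ± 18 and 148.1 ± 0.25 CPM per kilobase (SD, n = 2). Etv4 ranked last in pregnant and lactating mice of both cell types, with 0.428 ± 0.13 CPM per kilobase in luminal and 5.02 ± 1.8 in basal cells of pregnant mice (SD, n = 2). The deposited length of Dusp5 was 1155 bases, against 2473 exon bases in GENCODE vM21, so its rank depends on the length used. For Dusp5, luminal virgin libraries overlapped with luminal pregnant and with basal pregnant ones, and basal virgin with luminal lactating ones. The basal stages of Spry4 all overlapped.

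**Figure D4:**
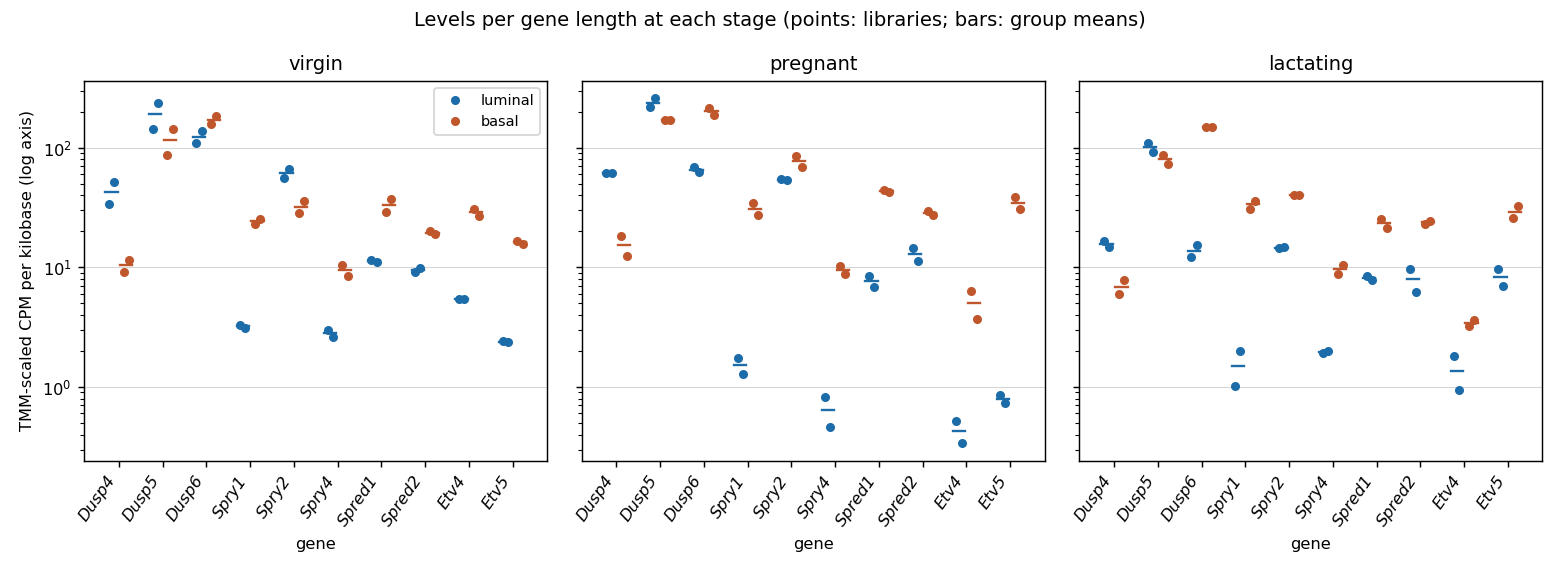
TMM-scaled CPM per kilobase of deposited length (log axis) of the 10 genes in virgin, pregnant and lactating mice, luminal in blue and basal in orange; points are libraries and bars means of 2. Dusp5 and Dusp6 stand highest in basal cells at each stage, and luminal Etv4, Etv5, Spry1 and Spry4 are the lowest points in pregnant mice.

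Across the 12 libraries, which share cell type and stage and are not independent of them, the members did not move as 1 block. On log2 CPM, Dusp4 and Dusp5 correlated at 0.85 (Pearson), Spry1 and Spry4 at 0.93 and Spred1 and Spred2 at 0.87, whereas Dusp4 and Etv5 correlated at -0.90. Etv4 and Etv5 correlated at 0.58 over all 12, at 0.41 within the 6 luminal and at -0.84 within the 6 basal libraries. Dusp6 and Spry2 correlated at 0.98 within luminal and at 0.75 within basal libraries. Among all genes tested, those closest to Dusp6 were Phax, Rnf217 and Clcf1 (r = 0.99, 0.98 and 0.98), those closest to Dusp4 were Tbcc, Lin37 and Irx3 (0.98, 0.97 and 0.97), and those closest to Spry2 were Irf2bpl, F3 and Gnb1 (0.98, 0.94 and 0.94). Etv4 lay closest to Rasgrf2, Osr2 and Csnk1g2 (0.98, 0.97 and 0.97) and Etv5 to Dhrs13os, Btbd11 and Plpp1 (0.99, 0.98 and 0.98). For Spry1 856 genes exceeded an r of 0.95, beside 0 for Dusp5.

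The rest of the pathway was described from lists of its parts, whose counts stand beside the shares of all genes called. Of 11 receptor tyrosine kinase genes, 5 were lower and 0 higher in luminal cells in pregnancy (all genes 24.1% lower and 21.8% higher, or 52.8% and 7.59% with library size only), with a list median of -0.21. Fgfr2, a receptor for FGF ligands, fell by 5.10 (SE 0.14) in luminal cells, from 322 and 294 CPM to 7.88 and 10.2 CPM, whereas basal libraries of these stages held between 160 and 203 CPM, and the difference of the changes was -5.35 (SE 0.18, adjusted p = 5.27e-09). Fgfr3 fell by 2.83 (SE 0.20) and Igf1r, the IGF receptor gene, fell by 2.17 (SE 0.23). In basal cells 2 of the 11 were higher and 4 lower in pregnancy (all genes 15.6% and 14.4%), among them Met, the receptor for hepatocyte growth factor, at 1.17 (SE 0.14) and Fgfr3 at -2.61 (SE 0.18). From pregnancy to lactation 8 of 11 fell in luminal cells and 1 rose (all genes 24.6% and 23.7%, or 60.0% and 6.34% with library size only), with changes of -3.57 (SE 0.26) for Kit, the stem cell factor receptor gene, and -2.49 (SE 0.33) for Igf1r. Fgfr4 had 0 counts in both luminal lactating libraries and was at least 4.52-fold lower than in pregnant ones, against a floor of 3 counts over the group. In basal cells 2 rose and 4 fell (all genes 15.7% and 17.4%), with Kit at -3.76 (SE 0.41).

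Of the 11 core cascade genes from RAS to ERK, 1 was higher and 2 lower in luminal cells in pregnancy (all genes 21.8% and 24.1%), and 3 were higher and 1 lower in basal cells (15.6% and 14.4%). Ksr1, the scaffold of RAF, MEK and ERK, changed in luminal cells by -1.01 (SE 0.19) in pregnancy and by -1.86 (SE 0.28) in lactation. In lactation 3 of 11 rose and 5 fell in luminal cells (all genes 23.7% and 24.6%, or 6.34% and 60.0% with library size only), with Nras at -1.26 (SE 0.13) and Map2k1, which encodes a MEK kinase, at 1.09 (SE 0.11), or 0.24 and not called with library size only. Of 12 adaptors and RAS regulators, 7 fell and 1 rose in luminal cells in lactation, against the same shares, with the docking protein gene Gab1 at -1.35 (SE 0.11). In basal cells 3 core genes rose and 0 fell in lactation, and 2 adaptors rose and 2 fell (all genes 15.7% higher and 17.4% lower).

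The other brakes gave mixed counts. Of the 7 other MAPK phosphatase genes, 1 was higher and 2 lower in luminal cells in pregnancy (all genes 21.8% and 24.1%), with Dusp10 at -2.25 (SE 0.17), and 1 higher and 4 lower in lactation (23.7% and 24.6%), with Dusp9 at -1.89 (SE 0.30) and Dusp7 at -1.48 (SE 0.20). In basal cells 3 were lower in pregnancy and 0 higher (all genes 14.4% and 15.6%), with Dusp8 at -1.33 (SE 0.19), and in lactation 2 were higher and 2 lower (15.7% and 17.4%), with Dusp9 at -1.59 (SE 0.20) and Dusp10 at 1.03 (SE 0.15). Of 6 other family members and brakes tested, 1 was higher and 2 lower in luminal cells in pregnancy, and likewise in lactation. In basal cells 1 was higher and 2 lower in pregnancy, and 1 and 1 in lactation. The shares of all genes were those just given. Errfi1, an inhibitor of EGF receptors, rose by 1.12 (SE 0.21) in basal cells in pregnancy and then fell by 1.01 (SE 0.21). It fell by 1.25 (SE 0.21) in luminal cells in lactation. Lrig1 had 48.0 and 52.1, then 76.8 and 72.5, then 117 and 114 CPM in luminal cells of virgin, pregnant and lactating mice. Etv1, the third PEA3-group gene, had 82 and 90 counts in luminal libraries of virgin mice, 3 and 3 in pregnant and 1 and 1 in lactating mice, beside 218 to 340 in basal libraries. Spry3 had 0 counts in all 12 libraries, which allows up to 0.101 to 0.229 TMM-scaled CPM per library, for counting error only.

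Of 11 genes that ERK signalling is known to induce, 6 were lower and 2 higher in luminal cells in pregnancy and again 6 and 2 in lactation, with list medians of -0.52 and -1.16. All genes tested were 24.1% lower and 21.8% higher at the first step and 24.6% and 23.7% at the second, or 52.8% and 7.59% and then 60.0% and 6.34% with library size only. Fos, Egr1 and Ier3 also stand in the dissociation and immediate early list below, so the counts of these lists are not separate. Phlda1 fell by 3.42 (SE 0.22) in luminal cells in lactation, from 407 and 384 CPM to 37.3 and 36.5 CPM, and Fosl1, an AP-1 subunit gene, fell by 2.78 (SE 0.18). Epha4, an ephrin receptor gene, fell by 1.81 (SE 0.21). Myc, a growth-promoting transcription factor gene, rose by 1.3 (SE 0.16) in luminal cells in pregnancy. In basal cells 2 of 11 were higher and 3 lower in pregnancy (all genes 15.6% and 14.4%), with the imprinted gene Phlda2 up by 1.46 (SE 0.23), and 2 higher and 4 lower in lactation (15.7% and 17.4%).

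Dissociation and immediate early genes moved at the same time. The immediate early genes among them respond to ERK but also to tissue dissociation, and the list also held the heat shock genes Hspa1a and Hspa1b. Dusp1 stood both in it and among the other MAPK phosphatases. Of 15 genes listed, 11 were lower and 0 higher in pregnancy in luminal and likewise in basal cells, with medians of -1.07 and -0.82. Of all genes 24.1% were lower in luminal cells (52.8% with library size only) and 14.4% in basal cells. From pregnancy to lactation 6 were higher and 1 lower in luminal cells (all genes 23.7% and 24.6%, or 6.34% and 60.0% with library size only), and 8 higher and 0 lower in basal cells (15.7% and 17.4%). Fos fell by 1.5 (SE 0.29) in luminal cells in pregnancy. Egr1, whose luminal change was -1.07 (SE 0.33) in pregnancy, was not called there without luminal virgin replicate 1 or luminal pregnant replicate 1, and its luminal rise of 1.4 (SE 0.33) in lactation was 0.56 and not called with library size only. In basal cells Egr1 changed by -1.14 and 1.47 and Fos by -1.04 and 1.17 at these steps. The falls were -0.75 and -0.67 without basal virgin replicate 1, and the rises 0.88 and 0.74 without basal lactating replicate 2. None of the 4 was then called. Both falls were also not called without basal pregnant replicate 1 (-1.17 and -1.01) or replicate 2 (-1.12 and -1.08). The rise of Fos was also not called without basal pregnant replicate 1 (1.13). In luminal cells Spry4, Etv4 and Etv5 fell in pregnancy, as 11 of these 15 genes did, with changes of -2.11, -3.66 and -1.58. In lactation they rose by 1.60, 1.66 and 3.39, as 6 of the 15 did. In basal cells the pregnancy changes of Spry4, Etv4 and Etv5 were 0.00, -2.52 and 1.10, and their lactation changes 0.03, -0.56 and -0.24. Dusp6 and Spry2 fell in lactation in both cell types, and the part of dissociation in any member's change was not tested.

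Markers of other cells also moved. The summed level of 9 endothelial markers was 106 to 142 CPM in luminal libraries of virgin, 27.4 to 35.3 CPM in pregnant and 62.4 CPM in both lactating mice's libraries, and 287 to 467, then 107 to 132, then 118 to 142 CPM in basal ones. That of 7 fibroblast markers was 237 to 385, 52.1 to 74.7 and 118 to 129 CPM in luminal and 223 to 306, 675 to 862 and 432 to 497 CPM in basal libraries. The luminal fibroblast sum followed Dcn, which stood at 346 and 170 CPM in virgin and at 7.17 and 7.15 CPM in pregnant mice, while Col1a1 stood at 9.61 and 19.1, then 16.3 and 11.3 CPM. Of these 7 markers 0 were called higher and 3 lower in luminal cells in pregnancy (all genes 21.8% and 24.1%). In lactation 4 were higher and 0 lower there (23.7% and 24.6%). Basal cells had 2 higher and 1 lower in pregnancy (15.6% and 14.4%), and 0 and 3 in lactation (15.7% and 17.4%). The luminal minus basal lactation difference was called higher for all 7 (all genes 18.3%, or 6.34% with library size only). The 5 pericyte markers summed to 1.63 to 6.45 CPM in luminal and 39.3 to 81.3 CPM in basal libraries, the 8 leukocyte markers to 10.6 to 31.0 and 11.4 to 56.3 CPM, and the 5 adipocyte markers to 0.0758 to 0.382 and 1.39 to 63.0 CPM. The basal adipocyte sum was almost all Lep, at 1.08 to 62.6 CPM. Adipoq, Plin1, Cidec and Retn each lay between 0 and 0.493 CPM in basal libraries. No endothelial, fibroblast or pericyte marker was at 0 in both libraries of a group. The luminal endothelial sum rose in lactation mainly with Vwf, from 16.3 and 9.47 CPM in pregnant to 40.3 and 36.6 CPM in lactating mice. At that step 3 of the 9 endothelial markers were called higher in luminal cells and 0 lower (all genes 23.7% and 24.6%). In pregnancy all 9 were called lower in luminal cells (all genes 24.1%, or 52.8% with library size only). All 9 were also called lower in basal cells in pregnancy (all genes 14.4%, or 21.8% with library size only). The endothelial sum was lowest in luminal cells in pregnancy, as Spry4, Etv4 and Etv5 were, and in basal cells it was higher in virgin mice than later, as Etv4 was. The part of other cell types in these changes was not tested.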

How the data were processed

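Read counts per Entrez gene in 12 libraries were used as the authors deposited them; they are raw counts, and the gene length beside them is in bases, per the file headers. The submitters' processing notes name the tools featureCounts, Subread 1.4.4 and CASAVA 1.8.2, as well as the builds mm10 and GRCm38. How strand and reads with several positions were handled, and with which annotation, is not given in the sources used here. The 12 single-library files differed from the table in 0 counts. Symbols and coordinates came from RefSeq tables of GRCm38.p6 (25275 identifiers matched; the others held 0.54% to 1.37% of a library's counts), exons from GENCODE vM21. The members and the gene lists were chosen with earlier results of these data known.

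Genes with a minimum count of 10 by group (filterByExpr) were kept, counts were scaled by TMM factors and 1 model of 6 group means was fitted with edgeR 4.0.16 (R 4.3.3); the quasi-likelihood F-test was adjusted by Benjamini-Hochberg over 15969 genes. Each SE was obtained as the size of the log2 change over the root of its F statistic. The fit was tested on simulated data. Correlations used log2 CPM with a prior count of 2. Library totals of 20.02 M to 24.72 M set the counting error, and intervals or floors cover counting error only. Replicate libraries correlated at 0.989 to 0.992, with a chi-square per degree of freedom of 8.76 to 27.4, so each counted as its own sample.

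Replicate numbers were checked for pairing: over 7012 genes, the deviations of luminal and basal libraries with 1 number at 1 stage correlated at 0.238, 0.397 and 0.203 in virgin, pregnant and lactating mice, against -0.302 to 0.179 in other pairs of groups. On this evidence, and on no label, a number was taken to mark a mouse, and a fit with the mouse as a block was an alternative. Alternatives were library size only, DESeq2 1.42.0 size factors and test, limma-voom (limma 3.58.1), other filters, only the groups compared, replicate blocks and leaving out each library. All 10 members were named; of each other list, genes were taken from the called ones with the 3 largest absolute log2 changes in a comparison, or from all called where 5 or fewer were. Fgfr4, Etv1 and Spry3 are given by their counts and were chosen after their values were seen. Promoter windows of 250 bases were searched for fixed motifs. Protein sequences were not analysed here.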

Additional observations from a re-analysis of the deposited data

Results flagged for a closer look

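For 12 results the luminal and the basal change differed in the test of the difference itself (edgeR, luminal minus basal, adjusted over all genes). In pregnancy these were Dusp6 (-1.14), Spry1 (-1.43), Spry2 (-1.44), Spry4 (-2.12), Spred1 (-0.96) and Etv5 (-2.69), all negative. On entry into lactation they were Dusp6 (-1.81) and Spry2 (-0.94), with negative differences, and Spry4 (1.57), Spred1 (0.98), Etv4 (2.22) and Etv5 (3.63), with positive ones. Etv5 carried the widest difference at both steps. The pregnant libraries enter both differences, so the 5 genes present in both sets are not separate evidence.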

How the results depend on the processing

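Of the 78 called changes among the 110 tests of the 10 genes, 60 were called under every alternative run for them and 63 under every one but library size only. Library size only reversed 2 results: Spred1 in luminal lactating against pregnant cells to -0.78 and Dusp5 in basal against luminal lactating cells to 0.65. It also took the count of members called in basal pregnant against virgin cells from 5 to 3, and the number of genes called in the lactation difference from 5787 to 8933. Leaving out 1 library gave 6 to 8 members called in luminal pregnant against virgin, 7 to 8 in lactating against pregnant and 6 to 9 in lactating against virgin cells, and 3 to 6 in each of the same basal comparisons. Basal against luminal it gave 9 to 10, 9 to 10 and 9 to 9 in virgin, pregnant and lactating mice, and for both differences of changes 6 to 7. The replicate block by mouse added the calls of Dusp5 in basal against luminal cells of pregnant (-0.48) and lactating mice (-0.34), of Etv4 in the pregnancy difference (-1.15) and of Dusp4 in the lactation difference (-0.83). The replicate block by number added Spred2 in luminal pregnancy (0.42) and Etv4 in the pregnancy difference (-1.13); the blocks changed no other call of a member. Each group's spread rests on 2 libraries, and the 16 and 27 counts of Etv4 in luminal cells of pregnant mice limit its folds. Lane and cell type cannot be told apart.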
